A study of Rattus norvegicus and Mus musculus with 61 samples.

Results

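Gene expression in rat cortex after sham surgery was set against that of naive cortex, over all sham times together and by time after the operation. The arrays were chosen by their labels: all 16 rat sham arrays and the 3 rat naive arrays, 19 of the 61 samples in the series. The series measured gene expression on oligonucleotide arrays in rodent cortex after traumatic brain injury, in the rat by fluid percussion. Each rat sample was parieto-occipital cortex, a disk 7 mm across, from 1 male Sprague-Dawley rat of about 400 g, frozen at once. Sham rats were anaesthetised with sodium pentobarbital, and tissue was taken 30 min (4 rats), 4 h (4 rats), 8 h, 24 h, 72 h or 21 d (2 rats each) after the sham operation. The labels of the naive rats name no anaesthetic, so anaesthesia, surgery and handling cannot be told apart in any sham-naive difference. They do not say which steps of the operation the sham rats went through. Sample titles also carry a letter of unstated meaning, which was a on every sham array and b or c on the naive arrays, so that letter and group cannot be told apart either. The 20 rat injury arrays were used to choose the probe sets tested, to estimate the spread between arrays and in 1 comparison at 24 h.

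A sham operation gives the brain what an injury model also gives: an anaesthetic, an opened scalp or skull, and the stress of surgery. Immediate early genes such as Fos and Egr2 encode transcription factors that neurons switch on within minutes of a stimulus, and phosphatases such as Dusp1 close that signal down. Nfkbia encodes IkB-alpha, which holds the inflammatory transcription factor NF-kappa B in the cytoplasm and is itself induced both by NF-kappa B and by glucocorticoids, the adrenal stress hormones.

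Before the comparisons, 3 sham arrays stood apart. Sham 30 min replicate 3, sham 4 h replicate 3 and sham 4 h replicate 4 had median correlations of 0.83, 0.731 and 0.608 with the other rat arrays, against 0.894 to 0.943 for the other sham arrays outside 24 h, 0.864 and 0.876 at 24 h and 0.933 to 0.942 for naive. The 3'/5' signal ratio of the Gapdh control probe sets, a sign of RNA integrity, was 2.633 and 0.242 in sham 4 h replicates 3 and 4 and 1.155 in sham 30 min replicate 3. It was 0.644 and 0.677 in the 24 h arrays, 0.823 to 1.62 in the remaining 11 sham arrays and 0.819 to 1.101 in naive. Among the injury arrays, 30 min replicate 5 had a correlation of 0.798 and a Gapdh ratio of 3.06. That injury array stayed in the estimate of the spread, also in the fits without the 3 sham arrays. The summed intensity of the cortical neuron markers was 14866 to 26433 in the other 13 sham arrays and 25449 to 25972 in naive. It was 20288 in sham 30 min replicate 3, inside the range of the 13, and 13141 and 7974 in sham 4 h replicates 3 and 4. Summed oligodendrocyte markers were 40218 in sham 30 min replicate 3 and 13127 and 10860 in sham 4 h replicates 3 and 4 (naive 30180 to 42127), and endothelial markers were 3885, 3258 and 5367 in the 3 arrays (naive 791 to 1018). Counts of called genes are therefore given with all arrays and without these 3, and values of single genes and lists that rest on 30 min or 4 h arrays also, where the 3 move them. The median signal was 399.2 and 406.7 in the sham 24 h arrays and 400.1 to 409.7 in injury 24 h, against 278.4 to 298.4 in naive. It was 358.3 to 395.9 in the 3 arrays that stood apart and 231.2 to 330.1 in the remaining 11 sham arrays. All arrays carry the same trimmed mean of 800.

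**Figure D1:**
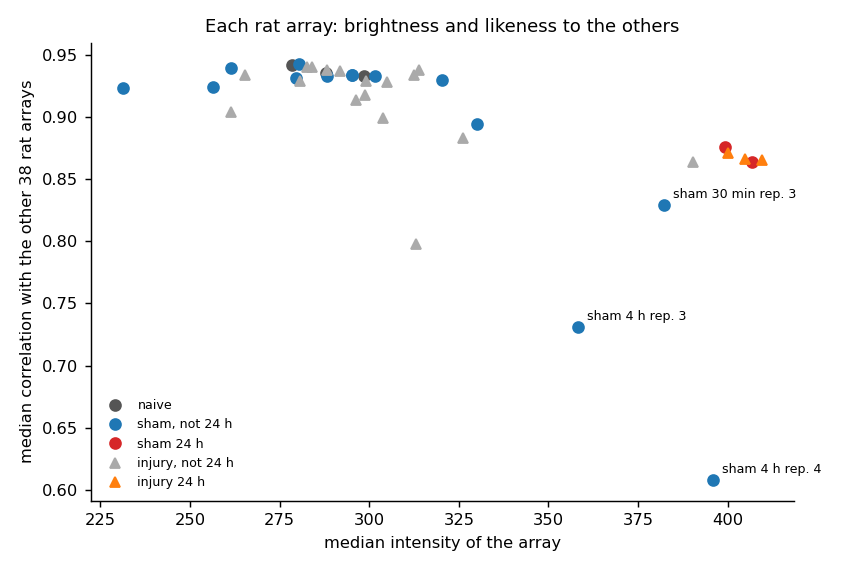
Each point is 1 of the 39 rat arrays (naive, sham or injury), by its median correlation with the other rat arrays and by its median signal (deposited intensity units). Among sham and naive arrays, the 3 sham arrays with correlations of 0.608 to 0.83 lie apart. They and the 2 sham 24 h arrays have the highest median signals of these groups, 358.3 to 395.9 in the 3 and 399.2 and 406.7 at 24 h. Injury 24 h arrays are as bright (400.1 to 409.7), and injury 30 min replicate 5 has a correlation of 0.798.

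Across all sham times together, 1 gene differed from naive cortex at an adjusted p below 0.05, out of 4091 genes tested (0.0244%), by limma with Benjamini-Hochberg adjustment. That gene was Nfkbia, and it was higher in every sham array than in every naive array. At an unadjusted p below 0.05 there were 218 genes (5.33%). Without the 3 arrays that stood apart the count was again 1 (0.0244%), again Nfkbia, with 243 genes (5.94%) at the unadjusted threshold.

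The intensity of Nfkbia was 193.2, 232.8 and 255.3 in the 3 naive rats. It was 727.9, 642.1, 558.8 and 618.4 at 30 min and 654.2, 459.2, 557 and 309.8 at 4 h. It was 548.2 and 382.2 at 8 h, 541.3 and 794.1 at 24 h, 441.1 and 506.8 at 72 h, and 384.3 and 558.7 at 21 d. The sham and naive groups do not overlap, and the lowest sham value, 309.8, came from sham 4 h replicate 4. The difference over the mean of the 6 sham times was 1.21 ± 0.22 on the log2 scale (SE; adjusted p = 0.0144), and 1.25 ± 0.20 without the 3 arrays (adjusted p = 0.00205). By time it was 1.49 ± 0.26 at 30 min (adjusted p = 0.00925) and 1.54 ± 0.31 at 24 h (adjusted p = 0.00396). At 4 h, 72 h and 21 d the differences were 1.08, 1.07 and 1.04 and did not pass (adjusted p = 0.0677, 0.319 and 1). These 6 contrasts share the same 3 naive arrays and are not independent of one another. The F test among the sham times alone, which uses no naive array, did not call Nfkbia (adjusted p = 0.427).

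This difference came from 1 of the gene's 2 probe sets. The other, with intensities of 332.3 to 423.4 in naive and 81.8 to 903.8 in sham, overlapped between the groups and gave 0.15 over all sham times, 0.89 at 30 min and -0.36 at 24 h. At 30 min both probe sets were higher in sham than in naive. The call also rested on the 3 naive arrays: leaving out naive replicate 1, 2 or 3 gave adjusted p = 0.603, 0.203 and 0.0885, while leaving out any single sham array kept it (0.00208 to 0.0387). With quantile normalization the adjusted p was 0.168. A block for the title letter cannot test the difference, since every sham array carries a and no naive array does. That fit rests on naive replicate 3 and on injury 21 d replicate 1 against replicates 2 and 3, and it gave 1.81.

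The 250 bases upstream of Nfkbia and of 3 genes described below at 30 min, Errfi1, Dusp1 and Egr2, are printed to show which response elements of known stimulus-driven factors they carry. Coordinates and sequences are from RefSeq (GRCr8). They are shown 5' to 3' on the gene's strand and end at the base before its annotated start. Capitals mark every match, on either strand, to a kappa B-like site (GGGA and CC with 4 bases between them), the cyclic AMP response element (TGACGTCA), its shorter core (TGACG, which the full element contains) or the CArG box. Nfkbia lies on the minus strand (chr6:78597073-78597322), Errfi1 on the plus strand (chr5:166606591-166606840), Dusp1 on the plus strand (chr10:17184603-17184852) and Egr2 on the minus strand (chr20:21054442-21054691).
Nfkbia: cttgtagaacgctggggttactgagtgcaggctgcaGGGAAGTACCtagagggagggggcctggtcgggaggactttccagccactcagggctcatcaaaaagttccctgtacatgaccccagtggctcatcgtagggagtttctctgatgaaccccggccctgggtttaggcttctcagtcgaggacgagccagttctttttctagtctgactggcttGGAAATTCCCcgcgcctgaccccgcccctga
Errfi1: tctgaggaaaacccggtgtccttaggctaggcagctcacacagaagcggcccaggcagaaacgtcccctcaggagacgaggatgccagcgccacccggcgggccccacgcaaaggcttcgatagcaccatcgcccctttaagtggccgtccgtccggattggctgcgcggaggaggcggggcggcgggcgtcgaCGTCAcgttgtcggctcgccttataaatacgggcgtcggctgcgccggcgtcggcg
Dusp1: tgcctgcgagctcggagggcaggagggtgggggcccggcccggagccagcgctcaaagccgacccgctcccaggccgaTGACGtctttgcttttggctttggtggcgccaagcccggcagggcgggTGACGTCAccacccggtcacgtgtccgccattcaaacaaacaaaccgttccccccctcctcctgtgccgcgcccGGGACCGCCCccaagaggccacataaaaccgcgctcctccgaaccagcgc
Egr2: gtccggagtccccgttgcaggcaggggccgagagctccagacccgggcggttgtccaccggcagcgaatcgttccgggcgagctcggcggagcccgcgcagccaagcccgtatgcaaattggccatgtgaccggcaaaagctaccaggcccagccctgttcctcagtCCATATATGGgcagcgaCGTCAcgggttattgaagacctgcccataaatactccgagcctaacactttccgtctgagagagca
The Nfkbia window holds a pair of kappa B-like matches, 214 and 31 bases before the start. The Errfi1 window holds the TGACG core 56 bases before the start. Dusp1 holds a full cyclic AMP response element at 124 bases, another TGACG core at 172 and a kappa B-like match at 50. Egr2 holds a CArG box, the element bound by serum response factor, at 83 bases and a TGACG core at 66. Of 27457 rat promoters of this length, 16.8% hold the kappa B-like pattern, 1.7% the full cyclic AMP response element, 19% the core and 1.5% the CArG box. These are matches of letters and not measured binding.

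At 30 min after surgery the immediate early genes stood higher than in naive cortex and higher than at the later sham times. Against naive, 23 of the 25 measured members of that list were above 0, with a median log2 difference of 0.54 beside 0.04 over all genes tested. Without the 3 arrays the medians were 0.62 and 0.03. No member of the list passed the test against naive on its own. The list's median then went to -0.06 at 4 h, -0.37 at 8 h and -0.54 at 24 h, and was -0.22 at 72 h and 0.27 at 21 d. The glucocorticoid-responsive list (10 measured genes, among them Nfkbia and Errfi1) had a median of 0.67 at 30 min, or 0.80 without the 3 arrays.

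In all, 1 gene passed against naive at 30 min with all arrays (0.0244%, Nfkbia), beside 336 genes (8.21%) at an unadjusted p below 0.05. Without sham 30 min replicate 3 and the 2 low arrays of 4 h there were 2 (0.0489%), with Errfi1 the addition. Errfi1 encodes a feedback inhibitor of the EGF receptor and is induced by glucocorticoids and growth factors. Its intensity was 383.7, 368 and 560.4 in naive cortex and 1487.8, 1466.4, 802.3 and 967.4 at 30 min, where 802.3 is replicate 3. The groups do not overlap at 30 min, and by 8 h the values were 413 and 422.1, inside the naive range. The difference at 30 min was 1.41 ± 0.31 (adjusted p = 0.152), and 1.58 ± 0.31 without the 3 arrays (adjusted p = 0.0339). Its other 2 probe sets gave 0.92 and 0.89.

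Fos, a subunit of the AP-1 transcription factor and a standard marker of recent neuronal activity, measured 2726.1, 2752.4 and 2285.4 in naive cortex. At 30 min it measured 5258.1, 5075, 3799.1 and 7045.6, each above every naive array. Replicate 3, at 3799.1, is one of the arrays that stood apart, and with both other probe sets it lay below every naive array (880.6 against 1377.6 to 1568.2, and 369.0 against 496.8 to 691.9). At 8 h Fos measured 1849.8 and 1287.4, at 24 h 1359.3 and 1357.4, and at 72 h 1821.9 and 1282.8, each below every naive array. At 21 d the values were 4156.9 and 3339, above naive again. At 4 h the arrays split: replicates 1 and 2 gave 2038 and 2767, and the 2 arrays that stood apart gave 8118.8 and 5910.1. The other probe sets did not show those high values (794.5 and 1437.1, and 402.3 and 369.9). Against naive the 30 min difference of 1.0 ± 0.35 did not pass (adjusted p = 0.474), nor did that of 1.15 ± 0.29 without the 3 arrays (adjusted p = 0.182). The other probe sets gave 0.85 and 0.80 with all arrays.

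Dusp1, a phosphatase that switches off MAP kinases, measured 1202.3, 983.9 and 996.2 in naive cortex. At 30 min it measured 3190.4, 3161.5, 1158.8 and 2528.7, and only replicate 3, at 1158.8, lay within the naive range. By 8 h it was 734.1 and 530.9 and at 24 h 448.4 and 579, all below naive. At 72 h it was 1470.8 and 831.1, and at 21 d 1793.2 and 1710.9, with both 21 d arrays above every naive array. Its 3 probe sets were 1.62, 1.68 and 1.69 higher at 30 min than at the other sham times, but against naive they gave -0.63, 1.14 and 0.39, so its level relative to naive depends on the probe set.

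Egr2, a zinc-finger transcription factor of the same early wave, measured 321.9, 403.8 and 559.3 in naive cortex and 1367.7, 1152.4, 312.5 and 1151.4 at 30 min. Nr4a1, an orphan nuclear receptor, measured 3254, 4248.9 and 4432 in naive and 8501.9, 7141.2, 3477.2 and 8739.3 at 30 min. In both genes replicates 1, 2 and 4 lay above every naive array and replicate 3 did not. Neither passed against naive (Egr2 1.06 ± 0.63, adjusted p = 0.652 and Nr4a1 0.73 ± 0.53, adjusted p = 0.69), also without the 3 arrays (1.55, adjusted p = 0.577 and 1.04, adjusted p = 0.695). The other probe set of Nr4a1 gave 0.30 against naive at 30 min with all arrays.

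**Figure D2:**
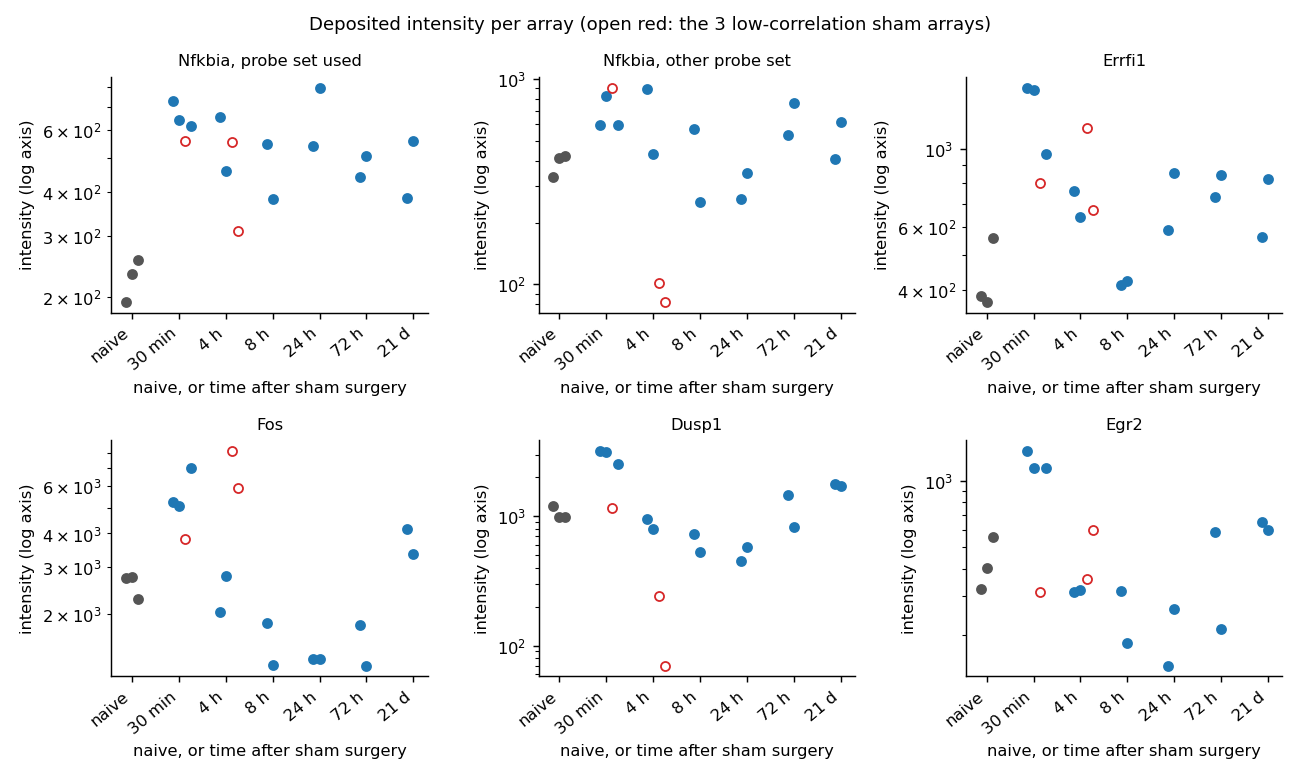
Deposited intensity (log axis) of Nfkbia by each of its 2 probe sets, Errfi1, Fos, Dusp1 and Egr2, with 1 point per array for naive and each sham time and open red points for the 3 arrays that stood apart. The first Nfkbia panel shows every sham array above naive, the second does not, and the other 4 panels show the 30 min arrays high, except replicate 3 in Dusp1 and Egr2.

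A comparison of the 30 min arrays with the mean of the other sham times, added after the data were seen, uses no naive array. With all arrays it called 0 genes by limma (328 genes, 8.02%, at an unadjusted p below 0.05). Without the 3 arrays it called 4 (0.0978%). Fos was higher at 30 min by 1.55 ± 0.24 (adjusted p = 0.00116) and Dusp1 by 1.74 ± 0.31 (adjusted p = 0.00925). With all arrays these were 1.25 (adjusted p = 0.15) and 1.68 (adjusted p = 0.251). Lower at 30 min were G0s2, an inhibitor of fat-droplet lipase, at -1.91 ± 0.38 (adjusted p = 0.027) and Ddost, a subunit of the oligosaccharyltransferase, at -0.76 ± 0.15 (adjusted p = 0.0288). Of the 25 immediate early genes, 24 were above 0 in this comparison with all arrays, with a median of 0.79 beside 0.03 over all genes.

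At 4 h no gene passed by limma, with all arrays or without the 3, although 1057 genes (25.8%) had an unadjusted p below 0.05 with all arrays and 161 (3.94%) without them. With 4 h replicate 1 or replicate 2 left out, which leaves the group mostly to the arrays that stood apart, 920 and 957 genes passed. The 4 h comparison is therefore decided by replicates 3 and 4.

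Small heat shock protein Cryab, alpha B-crystallin, a chaperone of astrocytes and oligodendrocytes, was highest at 4 h and 8 h with the probe set used. The other probe set gave 0.10 against naive over all sham times. With the probe set used Cryab measured 772.9, 1189.1 and 1245.5 in naive cortex and 1154.8, 1949.1, 1072.7 and 1588.8 at 30 min. At 4 h it measured 3418.1, 2344.9, 5534.9 and 6075.4, where 5534.9 and 6075.4 are from arrays that stood apart. At 8 h it was 2586 and 3706.8, at 24 h 899 and 819.6, at 72 h 1563.9 and 1666.9, and at 21 d 874.2 and 926.8. All 6 arrays of 4 h and 8 h lay above all naive arrays, and those of 24 h and 21 d lay inside the naive range. Against naive it gave 1.95 ± 0.42 at 4 h (adjusted p = 0.0677, and 1.44 with adjusted p = 0.774 without the 3 arrays) and 1.57 ± 0.50 at 8 h (adjusted p = 0.596). The heat shock list as a whole (14 genes) had a median of 0.40 at 4 h (0.34 without the 3 arrays) and 0.41 at 8 h, beside 0.10 and -0.03 over all genes, and -0.24 at 24 h. Hspa1a, the inducible HSP70, measured 97.1, 150.8 and 163.1 in naive and 246.7, 640.8, 328.9 and 1230.7 at 4 h, each 4 h array above naive (1.91 ± 0.67, adjusted p = 0.0915, and 1.57 with adjusted p = 0.999 without the 3 arrays).

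The early sham times (30 min, 4 h and 8 h) were compared with the late ones (24 h, 72 h and 21 d), again without the naive arrays. With all arrays 9 genes passed (0.22%), 5 higher (0.122%) and 4 lower early, and without the 3 arrays 51 (1.25%). Cryab was higher early by 1.27 ± 0.29 (adjusted p = 0.0484) with 1 probe set, but its other probe set gave 0.09. Psat1, an enzyme of serine synthesis, was higher early by 1.29 ± 0.27 (adjusted p = 0.0333), with its other probe sets at 0.59, -0.54 and -0.18. Zmiz1, a transcriptional co-regulator, was higher by 1.90 ± 0.38 (adjusted p = 0.0333), and Atrx, a chromatin remodeller, by 1.74 ± 0.38 (adjusted p = 0.0379). Lower early were Xylt2, a xylosyltransferase (-1.66), P2rx7, an ATP-gated channel of microglia (-1.59), Aif1, a microglial protein (-1.31), and Mmp2, a matrix protease (-1.12). The other probe sets gave -0.08 and 0.18 for Aif1 and -0.20 for Mmp2. With the probe set used, only the 24 h arrays were high for Aif1 (1209.8 and 1407.6). It measured 222 and 168.1 at 72 h and 174.4 and 193.4 at 21 d, near the 152.5 to 219.2 of 30 min. P2rx7 was 3.21 above naive at 24 h, beside 1.18 over all sham times. Without the 24 h arrays 3 genes were called, Adora1, Zmiz1 and Sec14l3, the last of them not among the 9. Without those arrays and the 3 there were 2 calls, Adora1 and Zmiz1.

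Adora1, the adenosine A1 receptor that dampens transmitter release, had the largest early rise, 2.45 ± 0.42 (adjusted p = 0.00808). It measured 206, 233.2 and 229.7 in naive cortex, 374.7, 253, 1662.2 and 837.2 at 30 min, 552.9, 535, 2241 and 3420.6 at 4 h, and 529.2 and 214.2 at 8 h. It measured 188.9 and 128.5 at 24 h and 62.9 and 43.6 at 72 h, below every naive array, and 154.1 and 225.4 at 21 d. The highest values, 1662.2, 2241 and 3420.6, are those of the 3 arrays that stood apart.

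With so few calls over all sham times, the genes next after Nfkbia are given as values only. Grm3, a metabotropic glutamate receptor of astrocytes and neurons, measured 5966, 6512.5 and 3892.5 in naive cortex. At 30 min it measured 4201.2, 5361.8, 3570.6 and 3146.3 and at 4 h 3044.2, 2116.4, 2345.7 and 1011. At 8 h it measured 1929.7 and 1862.2, at 24 h 2007.2 and 1640.6, at 72 h 2658.1 and 2703.3, and at 21 d 4428.2 and 4667.7. The arrays from 4 h to 72 h all lay below naive, while those of 30 min and 21 d overlapped it. Over all sham times it gave -1.02 ± 0.23 (adjusted p = 0.215, and 0.0536 without the 3 arrays). It fell by 1.55 at 24 h (adjusted p = 0.00602), and at 8 h it gave -1.49 (adjusted p = 0.159, and 0.0251 without the 3 arrays). Grm3 also differed among the sham times by the F test (adjusted p = 0.0184).

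Other genes with negative differences did not pass either. Camk4, a calcium-dependent kinase of neuronal nuclei, gave -1.75 ± 0.46 (adjusted p = 0.521). It measured 176.1 to 393.9 in naive cortex and 17.4 to 264.4 in sham, and its other probe set gave -1.57. Pip4k2b, a phosphoinositide kinase, gave -1.59 ± 0.42 (adjusted p = 0.521), with every sham array below every naive array. Grm5, another metabotropic glutamate receptor, gave -1.68 ± 0.54 (adjusted p = 0.626), Pafah1b1, the LIS1 protein of neuronal migration, -0.77 ± 0.20 (adjusted p = 0.521), and Vamp1, a protein of synaptic vesicles, -0.96 ± 0.27 (adjusted p = 0.596). The other probe sets gave -0.31 and -0.46 for Pafah1b1 and -0.95 for Vamp1. Of 21 measured neuronal and synaptic genes 17 were below 0, with a median of -0.35 beside 0.03 over all genes, and -0.22 without the 3 arrays. The summed neuron markers given above were below naive in several sham arrays, the lowest of the 13 at 14866 and the 24 h arrays at 18000 and 16062, and their part in these values was not tested. In whole tissue, fewer cells of a type and less RNA per cell cannot be told apart.

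Among genes that pointed up, Tnfrsf1a, the main receptor for tumour necrosis factor, gave 1.34 ± 0.40 (adjusted p = 0.596). It measured 116.9 to 186.3 in naive cortex. Every array of 30 min, 4 h, 72 h and 21 d lay above that range (277.9 to 1237.7), while 8 h gave 136.6 and 162.5 and 24 h 123.1 and 250.4. Its variation among sham times passed the F test (adjusted p = 0.0389). Fgf2, basic fibroblast growth factor, gave 1.19 ± 0.41 (adjusted p = 0.716), but 0.25 with its other probe set. Egfr, the EGF receptor, gave 1.56 ± 0.47 (adjusted p = 0.607), with naive arrays near the lower limit of the signal. Phf7, a ring-finger protein, gave 1.46 ± 0.41 and Wfdc1, a secreted protease inhibitor, 1.75 ± 0.52 (adjusted p = 0.596 for both). Gnb1, a G-protein beta subunit, gave 1.69 ± 0.50, but 0.84 and -0.14 with its other probe sets. With the title letter as a block the sign turned for Tnfrsf1a (-0.37), Wfdc1 (-0.77) and Camk4 (0.19). As given for Nfkbia, that fit rests on naive replicate 3 and the letters within injury 21 d, so it cannot test these signs.

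Every sham array lay above every naive array for 6 genes (0.147%): Adm, Gnb1, Gpd2, Nfkbia, Phf7 and Umod. Every sham array lay below every naive array for 6 genes (0.147%): Cap1, Dlst, Kcnc4, Pip4k2b, Rgs4 and Stk24. Without the 3 arrays Acvr1 made it 7 below (0.171%). Rgs4, which shortens G-protein signals in cortical neurons, measured 2131.8, 2261.2 and 2784.7 in naive and from 663.9 to 2080.2 in the 13 sham arrays that did not stand apart. Adm, the vasodilator peptide adrenomedullin, measured 31 to 38.2 in naive and 40.2 to 469.1 in sham, so its naive arrays lay at or near the lower limit set here at 32.1. Only Nfkbia of these 13 genes passed the test.

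As Nfkbia was the only gene called over all sham times, the gene groups are described by their medians and not by calls. Reactive astrocyte genes had a median of 0.57 (10 of 13 above 0), 0.37 without the 3 arrays. Astrocyte homeostasis genes had a median of -0.31 (9 of 11 below 0), -0.26 without the 3. Complement genes had 0.39 (8 of 10 above 0), 0.40 without the 3. Oligodendrocyte genes had -0.27 (9 of 10 below 0) but -0.13 without the 3, and red blood cell genes -0.56 (4 of 5 below 0) and -0.40. All genes together had a median of 0.03 either way. Gja1, connexin 43 of astrocyte gap junctions, gave -1.42 ± 0.65 and Aqp4, their water channel, -0.90 ± 0.40 (adjusted p = 0.895 for both), and the homeostasis list was lowest at 8 h (-0.68).

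**Figure D3:**
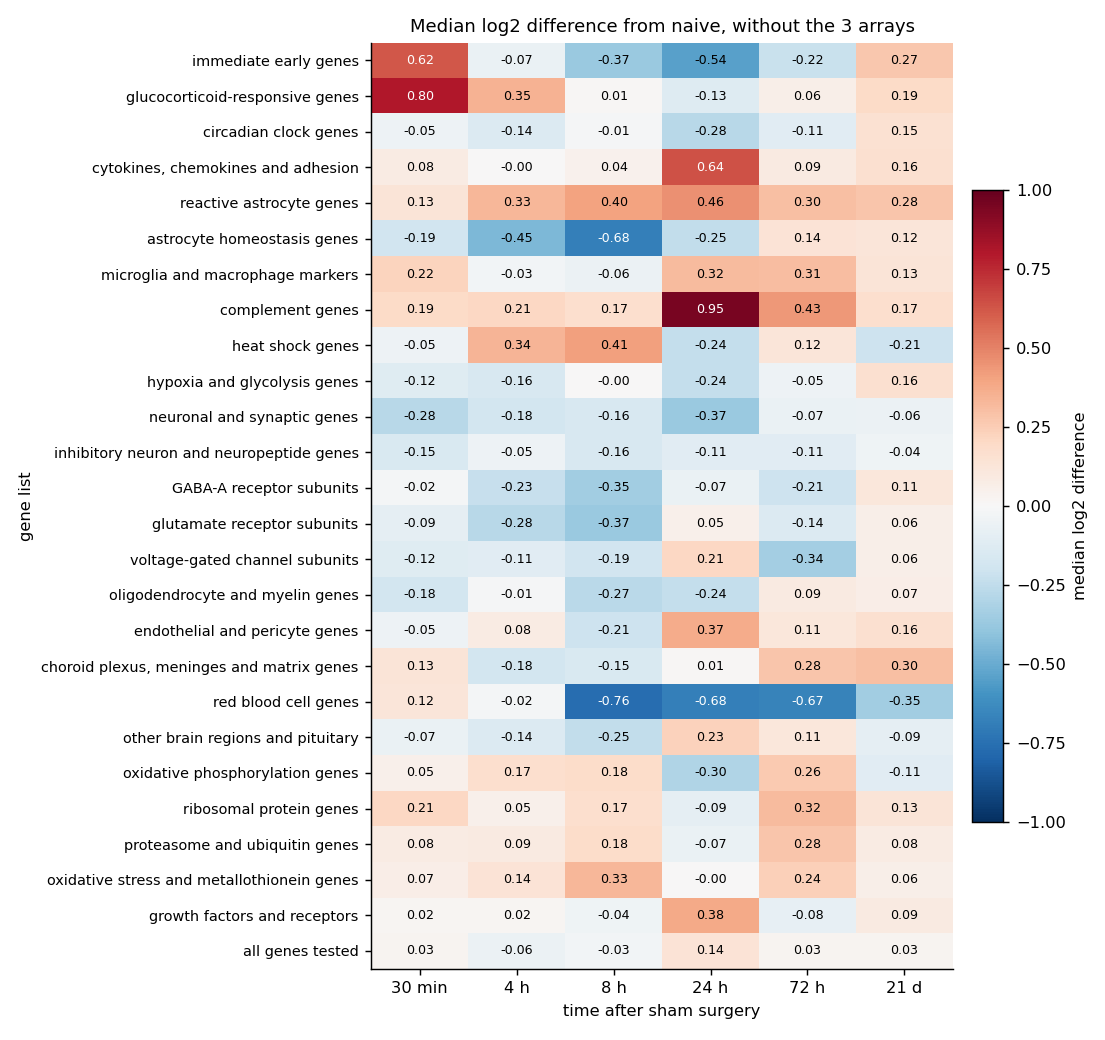
Median log2 difference from naive of each of the 25 gene lists (vertical axis) at each sham time (horizontal axis), without the 3 arrays that stood apart, with all genes in the bottom line and the value printed in each cell. Immediate early and glucocorticoid-responsive genes are highest at 30 min (0.62 and 0.80), heat shock genes at 8 h (0.41), and complement genes at 24 h (0.95).

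At 8 h no gene passed by limma with all arrays (173 genes, 4.23%, at an unadjusted p below 0.05), and 3 passed without the 3 arrays (0.0733%). These were Grm3, Sult1a1, a phenol sulfotransferase, and Syt6, a synaptotagmin. Sult1a1 measured 860, 622.3 and 681.4 in naive and 1779 and 2850.6 at 8 h (1.66 ± 0.33, adjusted p = 0.0409). Syt6 measured 219.4 to 287.5 in naive and 22.2 and 87.9 at 8 h (-2.21 ± 0.45, adjusted p = 0.0409). Neither gene's 8 h values overlapped naive. With 8 h replicate 1 left out, 13 genes passed.

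At 72 h no gene passed by limma with all arrays (220 genes, 5.38%, at an unadjusted p below 0.05), and 4 passed without the 3 arrays (0.0978%), all of them lower. Gabbr1, a GABA-B receptor subunit, measured 3667.7, 4216.9 and 4901.5 in naive and 973.9 and 1270.2 at 72 h (-1.93 ± 0.37, adjusted p = 0.0365). Syt4, a synaptotagmin, measured 3548.3, 2587.2 and 2596.1 in naive and 749.6 and 1267.7 at 72 h (-1.56 ± 0.32, adjusted p = 0.0442). Scamp1, a vesicle membrane protein, gave -1.45 ± 0.28 (adjusted p = 0.0365) and Gria1, an AMPA receptor subunit, -2.93 ± 0.62 (adjusted p = 0.0482). In each of the 4 genes the 72 h arrays lay below every naive array with the probe set used. Over all sham times the probe sets used gave -0.78 for Gabbr1, -1.37 for Gria1 and -1.03 for Syt4. The others gave -0.70, 0.40 and 0.27 for Gabbr1, -0.03 and 0.51 for Gria1, and -0.69 for Syt4. Over all sham times the falls of Gabbr1 and Gria1 thus depend on the probe set. Those means include 24 h, where the highest other set gave 4.59 for Gabbr1 and 3.56 for Gria1. The 72 h differences of the other sets are not given here. At 21 d no gene passed by limma with or without the 3 arrays, and 80 genes (1.96%) had an unadjusted p below 0.05 with all arrays.

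Sham 24 h was unlike every other sham time in its number of calls: 225 genes passed against naive (5.5%), 174 higher (4.25%) and 51 lower (1.25%), and 571 (14%) without the 3 arrays. With quantile normalization, which gives all arrays the same distribution, 195 genes passed, of which 88 were higher, so the share of higher calls went from 77.3% to 45.1%. The median over all genes went from 0.14 to -0.05. The higher calls were dim genes: their median mean log2 intensity was 7.51, that of the lower calls 8.37 and that of all genes 8.95. The brighter middle range of these arrays and their Gapdh 3'/5' ratios of 0.644 and 0.677, below the 0.819 to 1.101 of naive, moved with the calls, and their part in them was not tested. Summed pituitary markers were 2670 and 2575 in the 24 h arrays against 1160 to 1291 in naive. This was not particular to 24 h, as the 3 arrays that stood apart gave 2563, 3283 and 4903. Summed red cell markers were 13836 and 13771 against 20906 to 29357 in naive, with 11127 the lowest of the 13 sham arrays. The part of these in the calls was not tested either. Leaving out 24 h replicate 1 or 2 left 39 and 13 calls, and leaving out naive replicate 1, 2 or 3 left 136, 78 and 116.

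**Figure D4:**
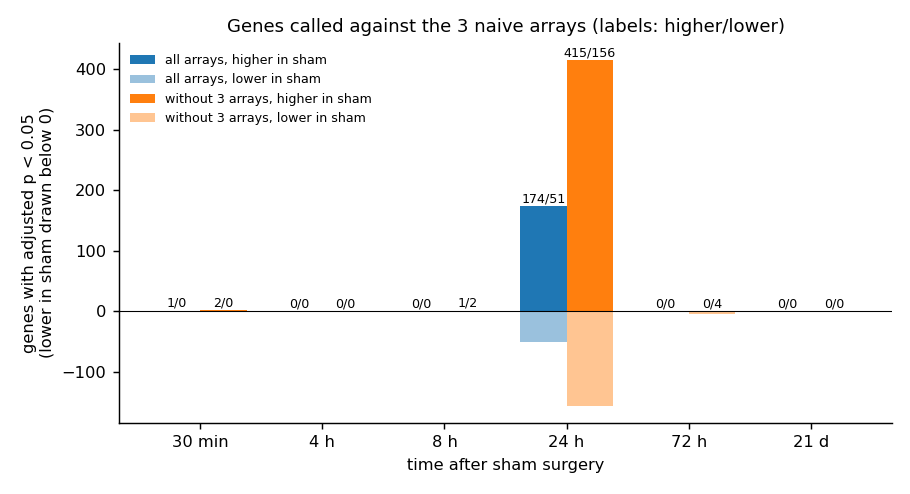
Number of genes with an adjusted p below 0.05 against the 3 naive arrays (vertical axis, lower in sham drawn below 0) at each sham time, with all arrays and without the 3 arrays that stood apart. Only 24 h has more than a few: 174 higher and 51 lower with all arrays, 415 and 156 without the 3.

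At 24 h, 2 of 32 growth factor and receptor genes rose, 1 of 17 cytokine genes and 1 of 13 microglial genes, shares not far from the 4.25% of all genes. With the 3 arrays left out 9, 3 and 2 rose, beside 10.1% of all genes. None of these lists had a member that fell. Bdnf, brain-derived neurotrophic factor, measured 368.6, 377.3 and 424.2 in naive cortex and 1214.9 and 1690.7 at 24 h, while the other sham arrays lay between 293.1 and 726.4. It rose by 1.88 ± 0.41 (adjusted p = 0.00728, and 0.00824 with quantile normalization). Il1b, interleukin-1 beta, measured 164, 137.4 and 114.6 in naive and 484.9 and 580.5 at 24 h (1.95 ± 0.53, adjusted p = 0.0287), with its other probe sets at 0.46 and 3.09. With quantile normalization the adjusted p of Il1b was 0.0535. C1qb, a subunit of the first complement component, measured 729.2, 628 and 1056.5 in naive and 2057 and 2726.7 at 24 h (1.59 ± 0.58, adjusted p = 0.0917, and 0.00272 without the 3 arrays). None of the 3 genes' 24 h values overlapped naive. The complement list had a median of 0.95 at 24 h (9 of 10 above 0, 1 rose, and 3 without the 3 arrays), beside 0.14 over all genes.

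Of 9 circadian clock genes 1 rose and 1 fell at 24 h, and of 21 glutamate receptor genes 2 fell, Grm3 and Grik2, beside 4.25% of all genes that rose and 1.25% that fell. Without the 3 arrays the clock counts were again 1 and 1, while 5 glutamate receptor genes fell and 1 rose, beside 3.81% and 10.1% of all genes. Hlf, a clock-output transcription factor, measured 108.8, 311.9 and 288.9 in naive and 877.2 and 869.6 at 24 h (2.03 ± 0.50, adjusted p = 0.0154), though its other probe sets gave 0.57 and 0.07. Bmal1, the core clock activator, measured 488.4, 311.8 and 565.8 in naive and 97.1 and 111.8 at 24 h (-2.08 ± 0.64, adjusted p = 0.0481), with its other probe set at -0.99. The labels used here give no clock time of tissue removal. Grik2, a kainate receptor subunit, measured 296.5, 346.9 and 246.5 in naive and 40.1 and 34.5 at 24 h (-2.98 ± 0.63, adjusted p = 0.00564). Crem, a repressor and activator of cyclic AMP genes, was the 1 immediate early gene of 25 called at 24 h, at -2.23 (adjusted p = 0.00729), with its other probe sets at 0.52, -2.42 and 1.54. With the 3 arrays left out 3 immediate early genes fell.

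The largest rises at 24 h were those of Prl8a5, Dspp and Grifin. Prl8a5, a placental prolactin family gene, measured 3.6, 4.3 and 41.7 in naive and 705.6 and 899.5 at 24 h (4.51 ± 0.59, adjusted p = 4.36e-05), but its other probe set gave -0.27. Dspp, a dentin matrix protein, measured 33.9, 16.2 and 11.4 in naive and 745.6 and 642.6 at 24 h (4.41 ± 0.64, adjusted p = 9.66e-05), with 2.82 on its other probe set. Grifin, a lens galectin-related protein, measured 59.2, 19.3 and 34.9 in naive and 735.1 and 918.1 at 24 h (4.34 ± 0.85, adjusted p = 0.00274). These naive values lie at or near the lower limit, so the sizes depend on it. Prl8a5 exceeded the filter of 202.5 only in 24 h arrays, those of sham and 2 of injury (401.9 and 219). It was therefore tested only because it was high there, and its rank is no separate evidence. Lower were Clec11a, a growth factor of bone and blood stem cells (-3.77 ± 0.92, adjusted p = 0.0153), Gnaz, a neuronal G-protein alpha subunit (-3.58 ± 0.55, adjusted p = 0.000244), and Ythdf3, a reader of methylated RNA (-3.37 ± 0.69, adjusted p = 0.00415). Gnaz measured 958.4, 1126.4 and 630.7 in naive and 91.3 and 59.4 at 24 h, but its other probe set gave -0.06.

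Probe sets of a gene often disagreed at 24 h. Of 68 further probe sets for 52 of the called genes, 49 (72.1%) had the same sign as the one used and 24 exceeded 1 log2 unit in that direction. Over all genes 62.8% of further probe sets had the same sign. Aif1 shows the spread: the probe set used rose from 127.3, 186.5 and 227.1 in naive to 1209.8 and 1407.6 (2.90 ± 0.47, adjusted p = 0.000331), while the others gave -1.49 and 0.67.

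Sham 24 h was also set against the mean of the other sham times, which uses no naive array and was added after the data were seen. This called 377 genes (9.22%), 286 higher (6.99%) and 91 lower (2.22%), so 75.9% of the calls were higher, against 44.2% with quantile normalization (167 higher and 211 lower). The genes called against naive were then read in the injury arrays, whose means enter no sham comparison. The filter and the spread estimate are common to both. A dim gene could pass the filter by being high in the 24 h arrays of sham and injury, so the overlap below is not independent evidence. Injury 24 h (3 rats after fluid percussion) was set against the mean of the other injury times, a comparison added after the data were seen. It called 637 genes (15.6%), 465 higher (11.4%) and 172 lower (4.2%), beside 29.7% at an unadjusted p below 0.05. With quantile normalization 225 were higher and 288 lower, which took the share of higher calls from 73% to 43.9%. Of the 225 genes called at sham 24 h, 186 passed there in the same direction, which is 82.7% of the sham list and 29.2% of the injury list. Of the 174 higher genes 152 passed and 172 were above 0, and of the 51 lower genes 34 passed and all 51 were below 0. Both sets of 24 h arrays share the high median signal given above, and both sets of 24 h titles carry an added letter f whose meaning the labels do not give. What the 24 h arrays have in common beyond the hour, and surgery, cannot be told apart here.

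**Figure D5:**
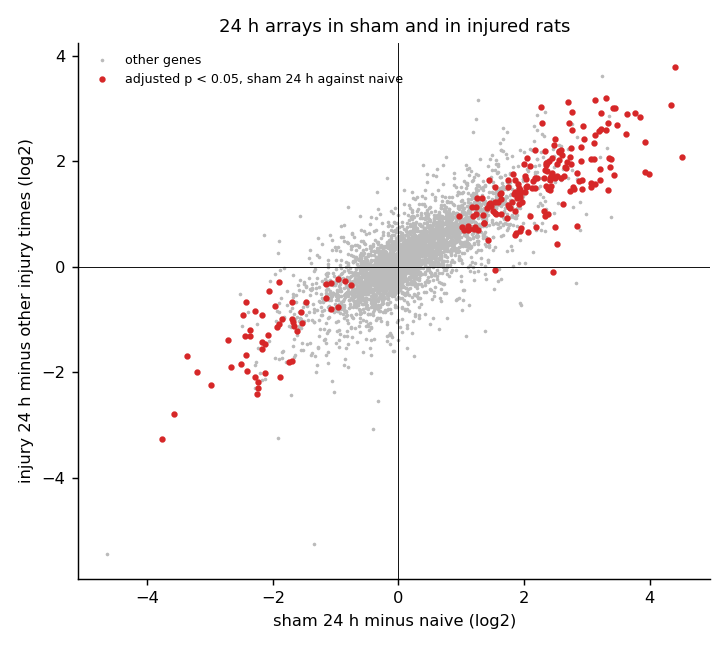
Each point is 1 gene, by its log2 difference of sham 24 h from naive (horizontal) and of injury 24 h from the other injury times (vertical). The group means of these differences share no array, but the filter and the spread estimate are common to both. The 225 genes called at sham 24 h are coloured, and 186 of them also passed in the injury arrays in the same direction.

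Among the sham times themselves 230 genes differed by the moderated F test (5.62%), and 439 without the 3 arrays (10.7%). At an unadjusted p below 0.05 there were 27.1% of genes. Without the 24 h arrays 1 gene was called, Adora1 (adjusted p = 0.022). Without the 24 h arrays and the 3 that stood apart there were 2, Fos (adjusted p = 0.0219) and Mmp2 (adjusted p = 0.0323). The F count was 12 and 1 without 24 h replicate 1 or 2, and 814 and 773 without 4 h replicate 1 or 2.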

How the data were processed

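The authors deposited 1 linear intensity per probe set and array. The software that made these intensities is not given in the sources used here, and the files hold no detection calls. The values share a mean of 800 after trimming 2% at each end. They were floored at the pooled 10th percentile (32.1) and taken as log2, so a difference against values at the floor depends on it. Probe sets above 202.5 (pooled 40th percentile) in at least 3 of the 39 rat arrays were kept, 7162 of 8799. Genes were named from 7006 probe sets with 1 symbol; 308 had several, 1426 none and 59 were controls. The probe set with the highest mean stood for a gene, giving 4091 genes.

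The differences come from limma 3.58.1 (R 4.3.3): lmFit with a mean for each of 13 rat groups in 1 model (26 residual degrees of freedom), then eBayes with trend. Calls are genes whose p, adjusted over all genes by Benjamini-Hochberg, was below 0.05, and ± is the standard error. The sham value is the unweighted mean of the 6 sham times. The fit was checked on simulated data. Samples are separate rats, and their number limits the precision. Replicate numbers were checked for pairing: same-numbered arrays of different groups had a median correlation of deviations of -0.01 (42 pairs), and other arrays 0.01 (67), so they do not pair.

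Named genes were, over all sham times, the 5 with the smallest p in each direction where fewer than 5 were called; at each time the 3 largest called rises and falls; early against late, the 5 largest each way; 6 smallest p by F test; and 3 members per list by p. Bdnf, Grik2, Crem and the 30 min genes other than Nfkbia and Errfi1, and the members of short counts, were chosen after their values were seen. The members and the 25 lists were chosen with earlier results of these data known. Alternatives changed normalization, filter, floor, probe sets, arrays, weights and blocks. Figures used matplotlib 3.10.9.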

Additional observations from a re-analysis of the deposited data

Results flagged for a closer look

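In 52 groups of 4 arrays, the highest or lowest array was compared with the rest by Dixon's ratio of gap to range, at its 95% critical value, which chance exceeds in about 1 in 20 groups. Of the 9 ratios above it, 8 belong to the 3 arrays that stood apart. Wfdc1 had 0.916 at 30 min, where replicate 1 was low, and 0.935 at 4 h (replicate 3). At 4 h the ratio was 0.850 for Dspp and 0.933 for Ythdf3 (replicate 4 in both), and 0.859 for Zmiz1 (replicate 3). At 30 min it was 0.875 for Mmp2 and 0.961 for Cd52, both from replicate 3. B3gntl1 and Cd52 at 4 h reached 1.0, since replicate 4 alone lay above the floor.

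The difference from naive also varied among sham times by the moderated F test for several named genes. Adjusted p was 0.0389 for Tnfrsf1a, 0.0184 for Grm3 and 0.035 for Vamp1. It was 0.000114 for Prl8a5, 0.0007 for Dspp, 0.021 for Grifin, 0.0205 for Clec11a and 0.0007 for Gnaz, all of them most extreme at 24 h. Prl8a5 passed the filter only through 24 h arrays.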

How the results depend on the processing

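Over all sham times the 1 call became 0 with quantile normalization or with only the 19 sham and naive arrays in the model. It became 2 with the replicate block and 97 with array quality weights. The title letter as a block cannot test it, for the reason given above. The pairing by replicate number gave 15 calls for early against late sham, where the block was used, and 297 for the difference among sham times. Among sham times the 230 calls became 439 without the 3 arrays, 25 with only the 19 arrays, 1912 with weights, 1 without 24 h and 2 without 24 h and the 3. Early against late, 9 became 5 (quantile), 51 (without the 3), 0 (only the 19), 28 (floor at the 25th percentile), 282 (weights), 3 (without 24 h) and 2 (without both). At 30 min the 1 call became 0 with quantile normalization, 2 without the 3 and 0 with only the 19. Without the 3, 8 h gave 3, 72 h gave 4 and 24 h gave 571, and with only the 19 arrays 24 h gave 82. Without the 3, the 30 min comparison with other sham times gave 4, that of 24 h went from 377 to 853, and that of injury 24 h from 637 to 1056.

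Leaving out 1 array at a time gave 0 to 2 calls over all sham times, 1 to 814 among sham times, 0 to 14 for early against late, 0 to 1 at 30 min, 0 to 957 at 4 h, 0 to 13 at 8 h, 13 to 136 at 24 h, 0 to 1 at 72 h and 0 to 0 at 21 d. The call of Nfkbia was lost with quantile normalization (1.10, adjusted p = 0.168) and with only the 19 arrays (adjusted p = 0.823). It was also lost with the mean of its probe sets (0.68, adjusted p = 0.791). The letter block gave 1.81. Of 729 values for 81 named genes under alternatives, 686 kept direction and call. The letter block rests on naive replicate 3 and the letters within injury 21 d, so it cannot test the signs. Under it the sign turned for Wfdc1 (-0.77), Tnfrsf1a (-0.37), Camk4 (0.19), Junb (0.30), Nr1d2 (0.69), Vim (-0.82), C3 (-1.39), Scn1a (0.21), Ugt8 (0.58), Mal (0.18), Ocln (-0.64), Acta2 (-1.28), Kdr (-1.44), Fn1 (-0.80) and Cox7b (-0.06). With the mean of probe sets it turned for Acta2 (-0.29) and Gstm1 (-0.09). The causes were not tested. Groups of 2 arrays and the absence of detection calls limit every comparison.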
